A study of Mus musculus with 6 samples.

Results

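DNA replication and nucleotide supply was followed through 43 named genes, of which 42 were measured through an array feature assigned to a single gene, among 22180 such genes in all. The list was chosen by function, with earlier results of these data known. It covers origin licensing, the MCM helicase ring, helicase activation, polymerases and primase, and the sliding clamp with its loader. It also covers Okazaki fragment processing, single-strand binding, deoxynucleotide supply and the fork checkpoint. Rfc4 was not analysed here because its feature also carries another gene's symbol. Whole-kidney RNA of adult mice was hybridised to Mouse Gene 2.1 ST arrays (Affymetrix), with each sample on its own array. The 3 arrays labelled Pax28 dKO come from mice homozygous for floxed Pax2 and Pax8 that carry Rosa26CreER, a tamoxifen-activated Cre recombinase at a locus active in most cell types, so Cre is not restricted to one cell type. The 3 Control arrays come from Cre negative mice, whose Pax2 and Pax8 alleles the labels do not describe. Tamoxifen was injected in both groups (50 mg/kg, once a day for 3 days), first at 8 and then at 10 weeks of age, with kidneys collected 14 days past the final dose. The dKO arrays are numbered 1, 3 and 5 and the controls 2, 4 and 6; dKO 1 and control 4 are male and the other arrays are female.

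Before a cell copies its DNA, the origin recognition complex with Cdc6 and Cdt1 loads the MCM ring on origins, and Cdc45 and the GINS complex then turn the ring into an active helicase. Polymerases alpha, delta and epsilon synthesise DNA behind it, and the PCNA clamp holds delta and epsilon. Ribonucleotide reductase and the thymidine-making enzymes supply deoxynucleotides. Many of these genes are transcribed as cells enter S phase under E2F transcription factors. Most tubule cells of the adult kidney are quiescent, and tubule injury is known to bring surviving cells back into the cycle.

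Neither targeted gene was lower on arrays labelled Pax28 dKO. Pax8 stood at 10.11, 10.59 and 10.39 log2 on dKO 1, 3 and 5, against 9.09, 9.0 and 8.89 log2 on controls 2, 4 and 6, a log2 fold change of 1.36 ± 0.12 (SE; limma adjusted p = 0.0037). Pax2 stood at 6.11, 6.49 and 6.16 log2 on dKO 1, 3 and 5, against 6.09, 5.77 and 6.08 log2 on controls 2, 4 and 6, a difference of 0.27 ± 0.10 that did not pass (adjusted p = 0.19). The labels do not name the deleted exons, and features outside a deleted part check nothing. The directions given here follow the labels, and Pax8 was higher on arrays labelled dKO. The array medians lay between 3.81 and 3.87 log2, no pair of arrays shared the same value at more than 29 of 41345 features, and none of the measured proximal tubule, distal tubule, collecting duct and podocyte markers had a control mean below 2.98 log2, the lower quartile of all gene means, used here as the limit for dim genes. Ucp1, a gene of brown fat, stood at 5.12, 4.74 and 3.87 log2 on dKO 1, 3 and 5, against 7.77, 3.53 and 7.53 log2 on controls 2, 4 and 6. The labels do not say that each array is a separate animal, so the p-values cover only how these 6 samples vary, which may be technical.

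Of the 42 measured members, 13 rose and 0 fell at a limma adjusted p under 0.05. Of the members 31% rose, where over all genes 4.12% rose and 3.08% fell (7.2% in either direction). At an unadjusted p under 0.05, 24 members were higher and 0 lower, where the shares over all genes are 11.6% and 10.5%. The 3 dKO arrays lay above all 3 controls for 23 of the 42 members and below them for 0, against 11.7% and 10.8% of all genes. The median log2 fold change of the members was 0.32, against -0.0062 over all genes, and 39 of 42 estimates were above 0, where 48.4% of all genes were. The range ran from -0.17 for Rpa3 to 1.38 for Mcm5. Since the members were chosen with earlier results of these data known, these shares describe the list and are no independent test. Because whole kidney was used, more cells in cycle and more RNA per cell cannot be told apart.

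**Figure D1:**
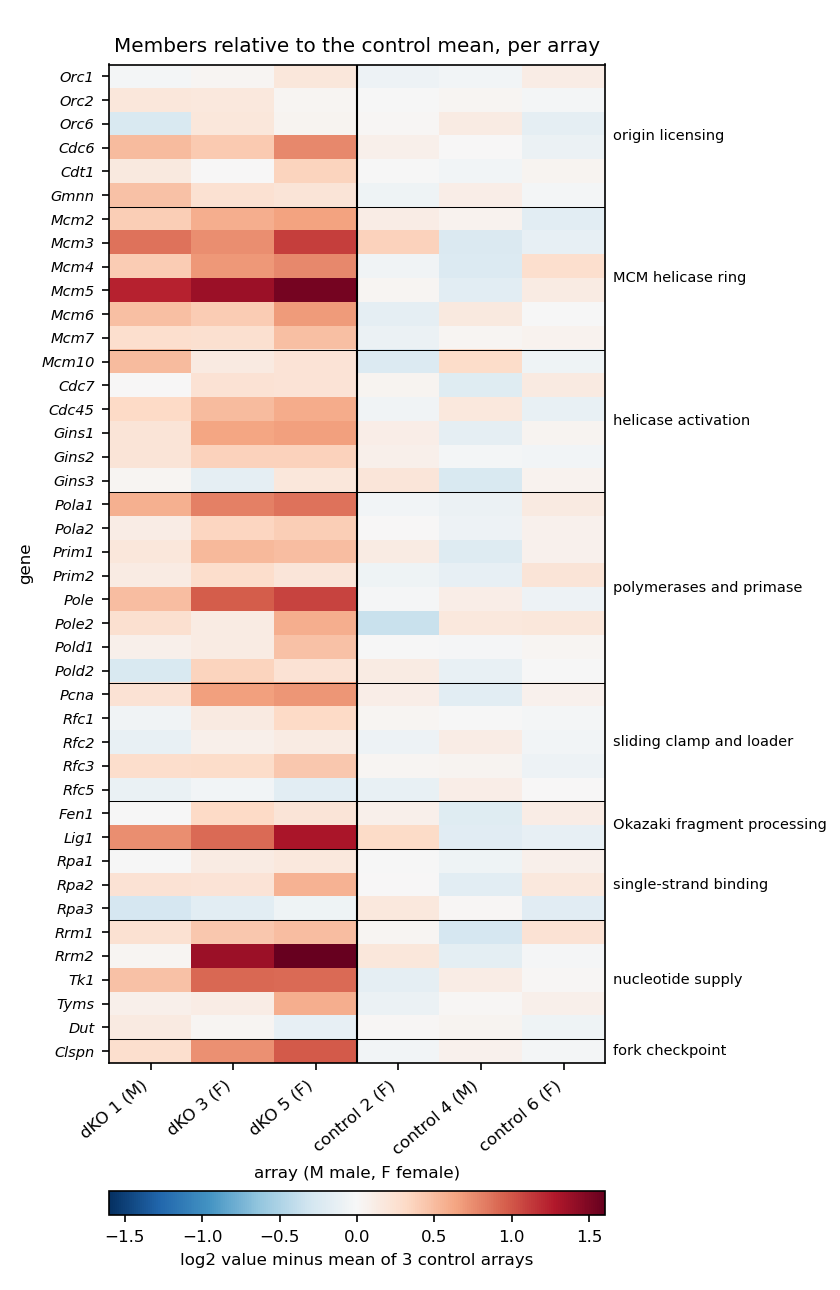
Log2 value of each of the 42 measured members (rows, grouped by complex) on each array (columns), minus the mean of the 3 control arrays. The strongest shades are those of Rrm2 and Mcm5 on dKO 3 and 5, Lig1 on dKO 5 and Mcm5 on dKO 1, while Rrm2 on dKO 1 is near the control mean.

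The MCM ring is the motor of the replicative helicase, built of Mcm2 to Mcm7 in equal numbers. All 6 subunits had their 3 dKO arrays above the 3 controls, and 5 of 6 rose (median 0.58 on the log2 scale). The shares over all genes were 11.7% and 4.12%. Mcm5 stood at 6.06, 6.19 and 6.35 log2 on dKO 1, 3 and 5, against 4.86, 4.65 and 4.95 log2 on controls 2, 4 and 6. The lowest dKO array exceeded the highest control by more than the spread within either group, and the change was 2.60-fold, 1.38 ± 0.084 on the log2 scale (SE; adjusted p = 0.0017). Mcm3 stood at 5.6, 5.47 and 5.84 log2 on dKO 1, 3 and 5, against 5.1, 4.5 and 4.59 log2 on controls 2, 4 and 6, a log2 fold change of 0.91 ± 0.17 (adjusted p = 0.026). Control 2 was the highest of the Mcm3 controls and still lay below dKO 3, the lowest dKO array. Mcm4 stood at 6.45, 6.74 and 6.81 log2 on dKO 1, 3 and 5, against 5.99, 5.82 and 6.31 log2 on controls 2, 4 and 6, and rose by 0.63 ± 0.10 (adjusted p = 0.021). Its closest arrays were dKO 1 and control 6. Mcm2 rose by 0.54 ± 0.11 (adjusted p = 0.038) and Mcm6 by 0.52 ± 0.11 (adjusted p = 0.043). Mcm7, at 6.3, 6.29 and 6.51 log2 on the arrays labelled dKO and 5.95, 6.06 and 6.1 log2 on the controls, differed by 0.33 ± 0.10, short of the threshold (adjusted p = 0.095), although its groups did not overlap. The paralogues Mcm8 (0.23 ± 0.086, adjusted p = 0.18) and Mcm9 (0.068 ± 0.076, adjusted p = 0.68), which work in recombination rather than in the replicative ring, did not pass. With single arrays left out, Mcm5 kept its call in 6 of 6 fits, Mcm2 and Mcm3 in 2, Mcm4 in 1 and Mcm6 in 0, with adjusted p up to 0.14. Omitting dKO 1 and omitting control 4 give the same fit, so the 6 fits hold 5 distinct ones. Counts out of 6 fits, here and below, include that fit under both omissions. It makes up both fits of Mcm2, while the 2 of Mcm3 were those without control 2 and without dKO 3. Without the sex term, and with every row of the table tested, 1 of the 6 subunits passed, Mcm5; Mcm2, Mcm3, Mcm4 and Mcm6 did not.

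The promoters of 4 MCM genes and of Pola1 are shown because they hold E2F-type letters, and were picked for that after the search; for Mcm7 the first of its start sites is printed. RefSeq start sites of build GRCm38.p6 were available for 35 of the 42 measured members (42 start sites), each as 250 bases before the start and 50 after. The letters searched, on both strands, were TTTCCCGC, TTTCGCGC, TTTGCCGC and TTTGGCGC, and capitals mark each match; matches on opposite strands can overlap, as in Mcm5 and Mcm6.
Mcm3 (chr1:20820263-20820562, minus strand): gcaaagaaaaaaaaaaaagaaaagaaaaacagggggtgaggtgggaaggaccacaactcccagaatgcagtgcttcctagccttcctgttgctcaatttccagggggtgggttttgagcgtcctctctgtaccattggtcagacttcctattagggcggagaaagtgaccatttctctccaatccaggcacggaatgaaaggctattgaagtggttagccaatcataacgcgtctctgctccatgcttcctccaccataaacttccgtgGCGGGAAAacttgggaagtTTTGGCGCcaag
Mcm5 (chr8:75109259-75109558, plus strand): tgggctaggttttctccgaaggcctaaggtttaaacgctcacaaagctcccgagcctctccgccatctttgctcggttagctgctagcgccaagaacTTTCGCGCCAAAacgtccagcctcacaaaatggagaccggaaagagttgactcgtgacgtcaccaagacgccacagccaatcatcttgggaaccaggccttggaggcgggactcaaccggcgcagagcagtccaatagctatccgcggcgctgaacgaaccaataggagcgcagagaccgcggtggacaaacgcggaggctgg
Mcm6 (chr1:128359656-128359955, minus strand): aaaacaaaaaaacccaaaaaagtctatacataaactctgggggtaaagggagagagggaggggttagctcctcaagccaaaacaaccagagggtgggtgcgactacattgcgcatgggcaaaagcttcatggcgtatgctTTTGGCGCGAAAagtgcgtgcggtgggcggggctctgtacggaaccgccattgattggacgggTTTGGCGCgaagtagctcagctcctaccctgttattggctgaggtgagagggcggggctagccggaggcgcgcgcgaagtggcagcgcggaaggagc
Mcm7 (chr5:138171834-138172133, minus strand): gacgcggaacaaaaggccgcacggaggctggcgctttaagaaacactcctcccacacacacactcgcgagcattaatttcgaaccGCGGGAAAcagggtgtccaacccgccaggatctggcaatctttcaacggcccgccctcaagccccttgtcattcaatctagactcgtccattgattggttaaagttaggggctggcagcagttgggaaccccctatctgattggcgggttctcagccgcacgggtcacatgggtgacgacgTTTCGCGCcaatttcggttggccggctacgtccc
Pola1 (chrX:93632106-93632405, minus strand): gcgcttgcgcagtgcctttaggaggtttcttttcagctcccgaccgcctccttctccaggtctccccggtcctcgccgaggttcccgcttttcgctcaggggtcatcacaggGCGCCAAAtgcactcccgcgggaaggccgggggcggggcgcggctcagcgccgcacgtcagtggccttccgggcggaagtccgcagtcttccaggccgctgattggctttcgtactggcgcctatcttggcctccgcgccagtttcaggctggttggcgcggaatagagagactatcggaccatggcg
Such letters were found in 14 of the 35 members with a start site, or 14 of 42 start sites (33.3%), against 2.27% of the 32851 start sites in the table and 2.61% of its 27025 genes. Of the 10 members with a start site that rose, 6 held a match (Cdc6, Mcm3, Mcm5, Mcm6, Pola1 and Lig1). Of the 25 that did not pass, 8 did (Orc1, Cdt1, Mcm7, Gins3, Pole2, Pold1, Rfc3 and Clspn). Mcm2, which rose, and the second start site of Mcm7 held no match, and no start site was available for Mcm4. The CCAAT box, the letters CCAAT on either strand, stood in 23 of the 35 members, against 41.1% of all genes, and was found at 1 or more places in all 5 promoters shown. TTTGAA, the cell cycle homology region of late cell cycle genes, stood in 6 of 35 members, against 20.2% of all genes. These matches describe letters in a window and show no binding.

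Among the origin licensing genes only Cdc6 passed the test. Cdc6, an ATPase that brings the MCM ring to the origin, stood at 3.62, 3.53 and 3.87 log2 on dKO 1, 3 and 5, against 3.19, 3.11 and 3.02 log2 on controls 2, 4 and 6. All dKO arrays exceeded the controls, with a log2 fold change of 0.57 ± 0.11 (SE; adjusted p = 0.035), and its control mean of 3.11 log2 lay just above the limit for dim genes. Gmnn, which encodes geminin, the inhibitor of Cdt1, stood at 4.96, 4.73 and 4.7 log2 on the arrays labelled dKO and 4.41, 4.59 and 4.45 log2 on the controls. Its groups did not overlap, but the difference of 0.31 ± 0.075 did not pass (adjusted p = 0.059). Cdt1, the partner of Cdc6 in MCM loading, stood at 5.57, 5.42 and 5.77 log2 on the arrays labelled dKO and 5.41, 5.37 and 5.46 log2 on the controls, with overlapping groups and a difference of 0.17 ± 0.11 (adjusted p = 0.41). The origin recognition subunits showed no change past the test. Orc6 stood at 5.65, 6.08 and 5.93 log2 on the arrays labelled dKO and 5.91, 6.03 and 5.75 log2 on the controls and differed by -0.0088 ± 0.13 (adjusted p = 0.98), Orc2 differed by 0.13 ± 0.079, and Orc1 lay below the limit for dim genes in both groups. Orc3, Orc4 and Orc5, measured outside the list, differed by 0.011 ± 0.088, 0.16 ± 0.085 and 0.13 ± 0.094 and did not pass. Of the 6 licensing genes 1 rose, with a median of 0.15, and Cdc6 passed in 0 of 6 fits that each omit an array (adjusted p up to 0.13).

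Of the 6 helicase activation genes 1 rose, with a median of 0.30 and all 6 estimates above 0. Gins1, a subunit of the 4-protein GINS complex, stood at 3.78, 4.21 and 4.23 log2 on dKO 1, 3 and 5, against 3.68, 3.43 and 3.62 log2 on controls 2, 4 and 6. It rose by 0.50 ± 0.085 (SE; adjusted p = 0.022), and dKO 1 was the dKO array nearest to the controls. Gins2 stood at 4.71, 4.88 and 4.88 log2 on the arrays labelled dKO and 4.59, 4.48 and 4.47 log2 on the controls, a difference of 0.31 ± 0.08 that did not pass (adjusted p = 0.07). Cdc45, which joins GINS on the MCM ring, stood at 4.64, 4.83 and 4.91 log2 on the arrays labelled dKO and 4.26, 4.49 and 4.21 log2 on the controls. Its groups did not overlap and its difference was 0.47 ± 0.12 (adjusted p = 0.061). Gins3 stood at 5.36, 5.17 and 5.51 log2 on the arrays labelled dKO and 5.51, 5.07 and 5.38 log2 on the controls, with overlapping groups and a difference of 0.025 ± 0.13 (adjusted p = 0.94). Within one 4-protein complex the estimates thus ran from 0.025 (Gins3) to 0.50 (Gins1), with Gins4 outside the list at 0.045 ± 0.078; the differences between subunits were not tested. Mcm10, a scaffold of the early fork, differed by 0.29 ± 0.085 (adjusted p = 0.094), and control 4 exceeded dKO 3 and 5. The kinase gene Cdc7 differed by 0.15 ± 0.077 and its activator Dbf4, outside the list, by 0.39 ± 0.16; neither passed. Gins1 did not pass when dKO 3, dKO 5, control 2 or control 6 was omitted (highest adjusted p = 0.088).

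Among polymerase and primase genes 3 of 8 rose and all 8 estimates were above 0, with a median of 0.30. Pola1, the catalytic subunit of polymerase alpha, which starts each new strand, stood at 5.4, 5.65 and 5.71 log2 on dKO 1, 3 and 5, against 4.78, 4.74 and 4.97 log2 on controls 2, 4 and 6. The groups were apart by more than their own spread, and the gene rose 1.68-fold, 0.75 ± 0.089 on the log2 scale (SE; adjusted p = 0.0082). Pole, the catalytic subunit of the leading strand polymerase epsilon, stood at 3.93, 4.4 and 4.51 log2 on dKO 1, 3 and 5, against 3.41, 3.54 and 3.34 log2 on controls 2, 4 and 6. It rose by 0.85 ± 0.15 (adjusted p = 0.024), with dKO 1 lowest of the dKO arrays; a second, dimmer feature for this gene differed by 0.15 and did not pass, and averaging both features ended the call. Prim1, the catalytic primase subunit, stood at 6.33, 6.66 and 6.64 log2 on dKO 1, 3 and 5, against 6.28, 5.94 and 6.22 log2 on controls 2, 4 and 6 and rose by 0.40 ± 0.074 (adjusted p = 0.028). Its gap was narrow, since dKO 1 and control 2 were nearly level. The second subunits of these enzymes had smaller estimates that did not pass: Pola2 at 0.28 ± 0.078, Prim2 at 0.21 ± 0.10 and Pole2 at 0.32 ± 0.18. Polymerase delta, which copies the lagging strand, showed no call, with Pold1 at 0.23 ± 0.11 (adjusted p = 0.3). Pold2 stood at 5.86, 6.46 and 6.34 log2 on the arrays labelled dKO and 6.24, 5.98 and 6.1 log2 on the controls, a difference of 0.11 ± 0.11 (adjusted p = 0.61); dKO 1 was its lowest array. Pola1 kept its call in 6 of 6 fits that omit an array (adjusted p up to 0.041), Pole in 2 (up to 0.097) and Prim1 in 0 (up to 0.1).

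**Figure D2:**
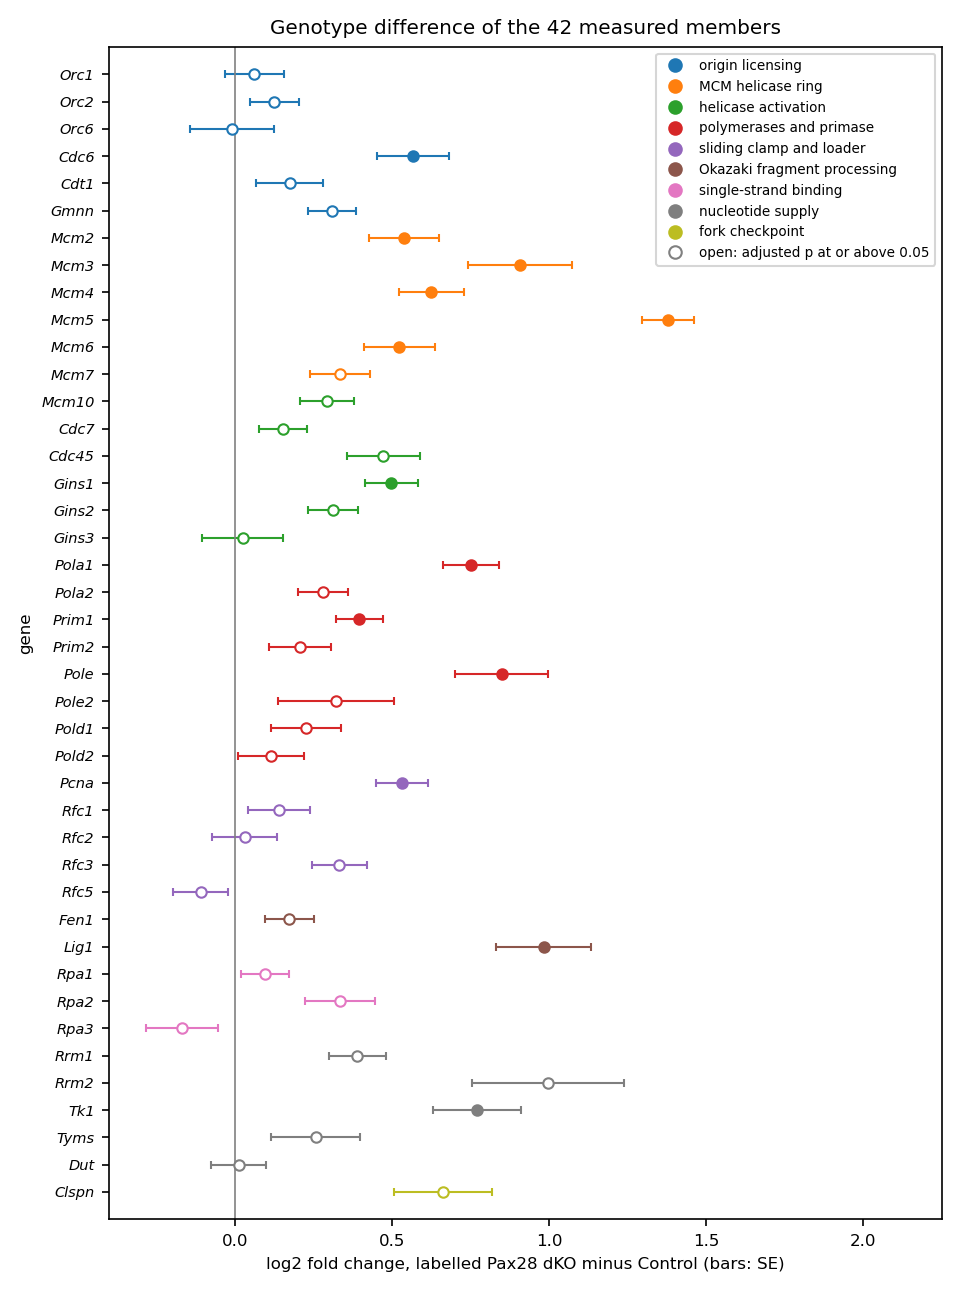
Log2 fold change of each measured member, arrays labelled Pax28 dKO minus Control, adjusted for sex, with limma's standard error as bars; filled points have an adjusted p under 0.05 and colours mark the complex. Mcm5 lies furthest right at 1.38, 5 of 6 MCM subunits are filled, and Rpa3, Rfc5 and Orc6 are the 3 estimates below 0.

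Of the clamp and its loader 1 of 5 measured genes rose, with a median of 0.14. Pcna encodes the ring that tethers polymerases to DNA, and stood at 8.65, 9.08 and 9.13 log2 on dKO 1, 3 and 5, against 8.52, 8.25 and 8.49 log2 on controls 2, 4 and 6. It rose by 0.53 ± 0.082 (SE; adjusted p = 0.017), with dKO 1 just above control 2. The loader is made of Rfc1 to Rfc5, and none of the 4 measured subunits passed. Rfc3 came closest, at 4.62, 4.63 and 4.76 log2 on the arrays labelled dKO and 4.37, 4.39 and 4.25 log2 on the controls, with groups that did not overlap and a difference of 0.33 ± 0.087 (adjusted p = 0.074). Rfc1, the large subunit, stood at 7.17, 7.37 and 7.55 log2 on the arrays labelled dKO and 7.25, 7.22 and 7.19 log2 on the controls, with dKO 1 below all 3 controls (0.14 ± 0.10, adjusted p = 0.48). Rfc2 stood at 6.3, 6.49 and 6.54 log2 on the arrays labelled dKO and 6.33, 6.53 and 6.36 log2 on the controls, differing by 0.031 ± 0.10 (adjusted p = 0.9), and Rfc5 differed by -0.11 ± 0.088 (adjusted p = 0.55). Pcna passed in 2 of 6 fits that omit an array, and not when dKO 3, dKO 5, control 2 or control 6 was omitted (highest adjusted p = 0.076).

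Lagging strand fragments are trimmed by the flap nuclease Fen1 and sealed by DNA ligase I, the product of Lig1. Lig1 stood at 5.37, 5.53 and 5.93 log2 on dKO 1, 3 and 5, against 4.93, 4.44 and 4.5 log2 on controls 2, 4 and 6. It had the second largest estimate among members that passed, 1.98-fold or 0.98 ± 0.15 (SE; adjusted p = 0.017), and lost its call without dKO 5 or control 6 (adjusted p up to 0.061). Fen1 stood at 3.96, 4.29 and 4.18 log2 on the arrays labelled dKO and 4.04, 3.77 and 4.09 log2 on the controls, overlapped between groups and differed by 0.17 ± 0.078 (adjusted p = 0.26); a second Fen1 feature differed by 0.094. The ligase genes of other pathways, measured in the list of repair outside replication, differed by -0.074 ± 0.081 (Lig3) and 0.11 ± 0.12 (Lig4), and neither passed.

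Replication protein A, the trimer that coats single-stranded DNA in replication and in repair, had no call in 3. Rpa2 stood at 5.59, 5.58 and 5.9 log2 on the arrays labelled dKO and 5.36, 5.18 and 5.52 log2 on the controls, with groups that did not overlap and a difference of 0.34 ± 0.11 (adjusted p = 0.13). Rpa3 stood at 6.49, 6.59 and 6.69 log2 on the arrays labelled dKO and 6.93, 6.78 and 6.58 log2 on the controls, the lowest estimate of all members at -0.17 ± 0.11 (adjusted p = 0.46). Rpa1 stood at 7.25, 7.39 and 7.42 log2 on the arrays labelled dKO and 7.25, 7.19 and 7.34 log2 on the controls, and its difference was 0.10 ± 0.076 (adjusted p = 0.54). The subunits of one trimer therefore had estimates on both sides of 0, none past the test.

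Of the 5 genes of deoxynucleotide supply 1 rose, with a median of 0.39. Tk1, the S-phase thymidine kinase that salvages thymidine, stood at 5.54, 5.99 and 5.97 log2 on dKO 1, 3 and 5, against 4.92, 5.19 and 5.09 log2 on controls 2, 4 and 6. It rose 1.70-fold, 0.77 ± 0.14 on the log2 scale (SE; adjusted p = 0.026). Rrm2, the small subunit of ribonucleotide reductase that is made in S phase, stood at 4.6, 5.94 and 6.16 log2 on dKO 1, 3 and 5, against 4.75, 4.41 and 4.54 log2 on controls 2, 4 and 6. The females dKO 3 and 5 were far above the controls, while the male dKO 1 lay among them, so the groups overlapped, and the difference of 1.0 ± 0.24 did not pass (adjusted p = 0.06). The 3 dKO values of Rrm2 had an SD of 0.85, the largest of any member. Rrm1, the large subunit, stood at 7.17, 7.37 and 7.43 log2 on the arrays labelled dKO and 6.97, 6.67 and 7.16 log2 on the controls. Its groups did not overlap and it missed the threshold narrowly (0.39 ± 0.091, adjusted p = 0.052). Tyms, which makes thymidylate, differed by 0.26 ± 0.14. Dut, which removes dUTP, stood at 6.45, 6.35 and 6.18 log2 on the arrays labelled dKO and 6.34, 6.36 and 6.25 log2 on the controls, a difference of 0.012 ± 0.088 (adjusted p = 0.96). Tk1 passed in 2 of 6 fits that omit an array, and not when dKO 3, dKO 5, control 2 or control 6 was omitted (highest adjusted p = 0.1). Clspn encodes claspin, the adaptor through which a stalled fork activates the kinase Chek1. It stood at 3.87, 4.33 and 4.58 log2 on dKO 1, 3 and 5, against 3.56, 3.67 and 3.57 log2 on controls 2, 4 and 6, with groups that did not overlap and a difference of 0.66 ± 0.16 that did not pass (adjusted p = 0.054).

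**Figure D3:**
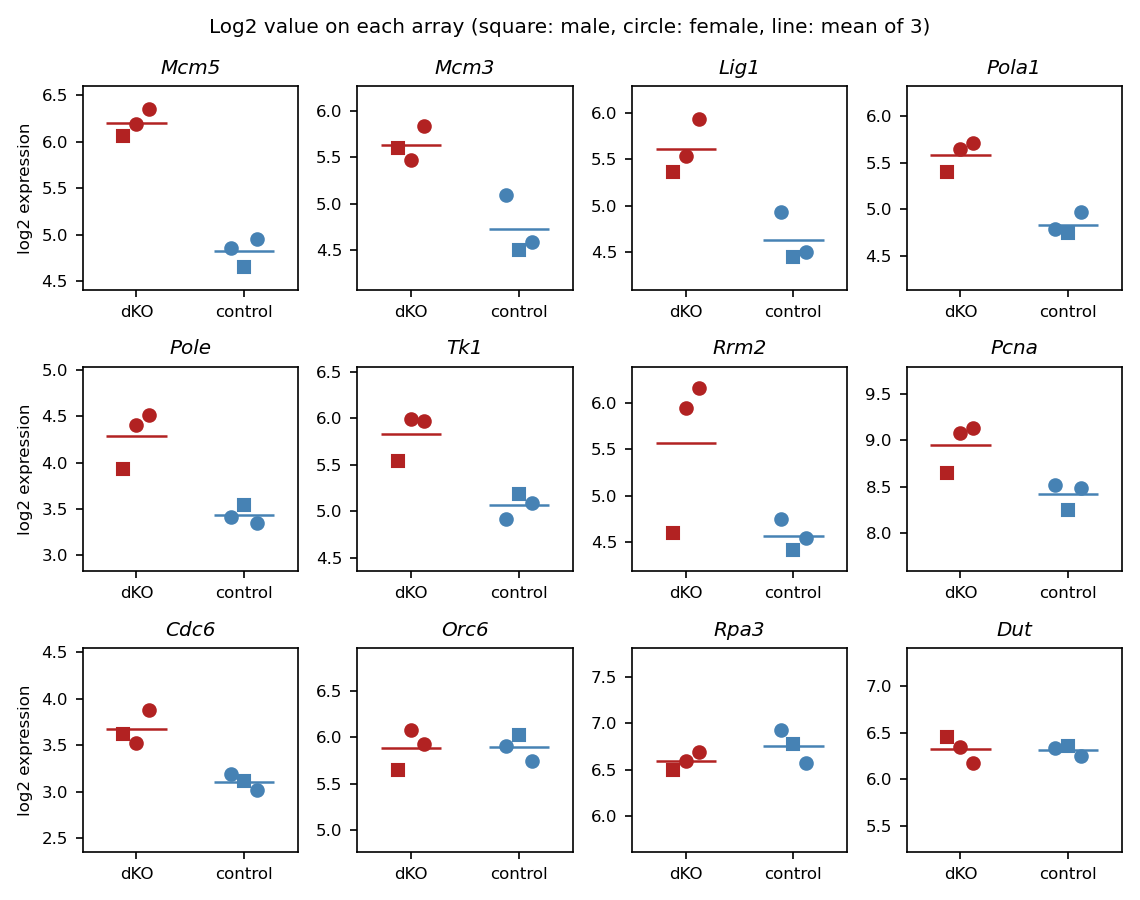
Log2 value on each array for 12 members, with arrays labelled dKO left and controls right in each panel, squares for males, circles for females and a line at the mean of 3 arrays; every panel spans the same log2 range. Mcm5 separates most clearly, the male dKO 1 lies with the controls for Rrm2, and Orc6, Rpa3 and Dut overlap between groups.

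Within the dKO group the female arrays were mostly higher. The male dKO 1 was the lowest dKO array for 29 of 42 members, dKO 3 for 9 and dKO 5 for 4, and dKO 5 was the highest of all 6 arrays for 28. Among the controls, the male control 4 was lowest for 20 of 42 members, control 2 for 11 and control 6 for 11. The members' median difference from the control mean was 0.20 on dKO 1, 0.31 on dKO 3 and 0.47 on dKO 5. Split by sex, the median genotype difference was 0.34 in the females and 0.22 in the males, which have 1 array per group. For Mcm5 the differences were 1.36 in the females and 1.41 in the males, and for Lig1 1.01 in the females and 0.92 in the males. For Rrm2 they were 1.40 in the females and 0.18 in the males, for Pole 1.08 in the females and 0.39 in the males, for Tk1 0.98 in the females and 0.35 in the males and for Clspn 0.89 in the females and 0.20 in the males. A genotype by sex term reached an unadjusted p under 0.05 for 6 members (these 4, Orc6 and Cdc45) and for 6.99% of all genes. Adjusted over all genes it passed for 0 members (smallest adjusted p = 0.44, Rrm2) and for 1 gene in all (0.00451%), so no member was shown to differ between the sexes.

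Of 26 measured replication factors outside the list, 3 rose (11.5%) and 0 fell, with a median of 0.13. Over all genes 4.12% rose and 3.08% fell, the shares to set beside this and each later list. Wdhd1, a fork scaffold, stood at 4.57, 5.03 and 5.12 log2 on the arrays labelled dKO and 4.34, 4.25 and 4.5 log2 on the controls and rose by 0.55 ± 0.10 (SE; adjusted p = 0.028). Topbp1, which acts in helicase activation and in the checkpoint, rose by 0.48 ± 0.10 (adjusted p = 0.038). Ticrr, which works with it, rose with a control mean below the limit for dim genes, so its rise is at least 0.25 on the log2 scale (adjusted p = 0.044). When arrays were omitted in turn, Topbp1 passed in 0 of 6 fits (adjusted p up to 0.13), and Wdhd1 and Ticrr in 2 (up to 0.1 and 0.15). The polymerase epsilon subunits Pole3 and Pole4 differed by -0.0033 ± 0.077 and 0.13 ± 0.13, and the delta subunits Pold3 and Pold4 by 0.20 ± 0.082 and 0.28 ± 0.083; none passed.

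In the list of other deoxynucleotide and one-carbon enzymes 2 of 12 rose (16.7%) and 1 fell, with a median of -0.16. Of all genes 4.12% rose and 3.08% fell. Dck, which salvages deoxycytidine, stood at 5.91, 5.86 and 6.12 log2 on dKO 1, 3 and 5, against 5.18, 5.54 and 5.06 log2 on controls 2, 4 and 6, and rose by 0.70 ± 0.13 (SE; adjusted p = 0.029). Samhd1, which breaks down deoxynucleotides and is abundant in myeloid cells, rose by 0.37 ± 0.081 (adjusted p = 0.043). Shmt2, a mitochondrial enzyme of one-carbon metabolism, stood at 9.19, 8.36 and 8.52 log2 on dKO 1, 3 and 5, against 9.28, 9.41 and 9.34 log2 on controls 2, 4 and 6, and fell by 0.65 (log2; adjusted p = 0.045). Rrm2b, the reductase small subunit used outside S phase and named after its values were seen, stood at 7.23, 6.85 and 6.69 log2 on the arrays labelled dKO and 7.08, 7.53 and 7.23 log2 on the controls; the estimate of -0.36 ± 0.088 was opposite in sign to that of Rrm2 and did not pass (adjusted p = 0.064). De novo purine and pyrimidine synthesis genes had 0 calls in 16, with 2 higher and 1 lower at an unadjusted p under 0.05 and a median of 0.041. Of 9 genes of mitochondrial DNA replication 0 rose and 1 fell, the helicase Twnk, at 5.45, 5.14 and 5.25 log2 on the arrays labelled dKO and 5.74, 6.03 and 5.7 log2 on the controls (-0.54 ± 0.078, adjusted p = 0.014), with a list median of -0.16. When arrays were omitted in turn, Samhd1 passed in 0 of 6 fits, Dck and Shmt2 in 2 and Twnk in 3 (highest adjusted p = 0.16, for Shmt2).

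Of 9 genes of chromatin assembly and maintenance methylation behind the fork, 4 rose (44.4%, against 4.12% of all genes) and 0 fell, with a median of 0.39. Uhrf1, which brings the maintenance methyltransferase to newly copied DNA, stood at 5.42, 5.85 and 6.07 log2 on dKO 1, 3 and 5, against 4.46, 3.81 and 4.19 log2 on controls 2, 4 and 6. It rose 3.09-fold, 1.63 ± 0.11 on the log2 scale (SE; adjusted p = 0.0017), and kept its call in 6 of 6 fits that omit an array. The histone chaperone Asf1b rose by 0.93 ± 0.13 (adjusted p = 0.012), and the subunits of chromatin assembly factor 1, Chaf1a and Chaf1b, by 0.74 ± 0.14 and 0.63 ± 0.10 (adjusted p = 0.032 and 0.021). The groups overlapped for Chaf1b. Asf1b did not pass when control 2 or control 6 was omitted (highest adjusted p = 0.061), Chaf1a passed in 2 of 6 such fits (up to 0.12) and Chaf1b in 1 (up to 0.085).

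Among the E2F factors, RB proteins and S-phase cyclins 2 of 24 rose (8.33%, against 4.12% of all genes) and 0 fell, with a median of 0.16. Both were E2F repressors. E2f8 stood at 4.0, 4.34 and 4.65 log2 on dKO 1, 3 and 5, against 2.67, 2.37 and 2.92 log2 on controls 2, 4 and 6; since its controls lay below the limit for dim genes, the rise is at least 1.35 on the log2 scale (adjusted p = 0.0017). E2f7 rose by at least 0.46 counted likewise (adjusted p = 0.029), and passed in 0 of 6 fits that omit an array (adjusted p up to 0.11). The activator E2f1, named after its values were seen, differed by 0.49 ± 0.13, short of the threshold (adjusted p = 0.077). Among 7 inhibitors of cyclin-dependent kinases 1 rose, Cdkn1a, which encodes p21, an inhibitor of S-phase entry that also binds PCNA. It stood at 7.32, 8.6 and 8.57 log2 on dKO 1, 3 and 5, against 7.04, 6.36 and 6.7 log2 on controls 2, 4 and 6, a log2 fold change of 1.46 ± 0.17 (adjusted p = 0.0079), with dKO 1 again the lowest dKO array.

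Of 18 checkpoint and fork repair genes 4 rose (22.2%) and 1 fell, with a median of 0.33. The shares over all genes were 4.12% and 3.08%. Chek1, the kinase activated through claspin, stood at 4.42, 4.13 and 4.56 log2 on dKO 1, 3 and 5, against 3.74, 3.69 and 3.8 log2 on controls 2, 4 and 6, and rose by 0.62 ± 0.12 (SE; adjusted p = 0.033). The exonuclease Exo1 rose by 0.65 ± 0.12, Fanci of the crosslink repair pathway by 0.46 ± 0.093 and the ubiquitin ligase Rad18 by 0.40 ± 0.081 (adjusted p = 0.025, 0.036 and 0.035). Hus1, a subunit of the checkpoint clamp, was the exception, at 7.83, 7.16 and 7.37 log2 on dKO 1, 3 and 5, against 7.88, 8.4 and 8.13 log2 on controls 2, 4 and 6, a fall of 0.68 (-0.68 ± 0.11; adjusted p = 0.018). The other clamp subunits Rad1 and Rad9a differed by -0.063 ± 0.073 and 0.066 ± 0.082 and did not pass. When arrays were omitted in turn, Fanci and Rad18 passed in 0 of 6 fits, Chek1 and Exo1 in 1 and Hus1 in 2 (highest adjusted p = 0.13, for Rad18). Repair genes outside replication had 0 rises and 1 fall in 18, that of the damage sensor Xpc (-0.44 ± 0.081, adjusted p = 0.027), a call found in 0 of 6 fits that omit an array; the list median was -0.0086.

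**Figure D4:**
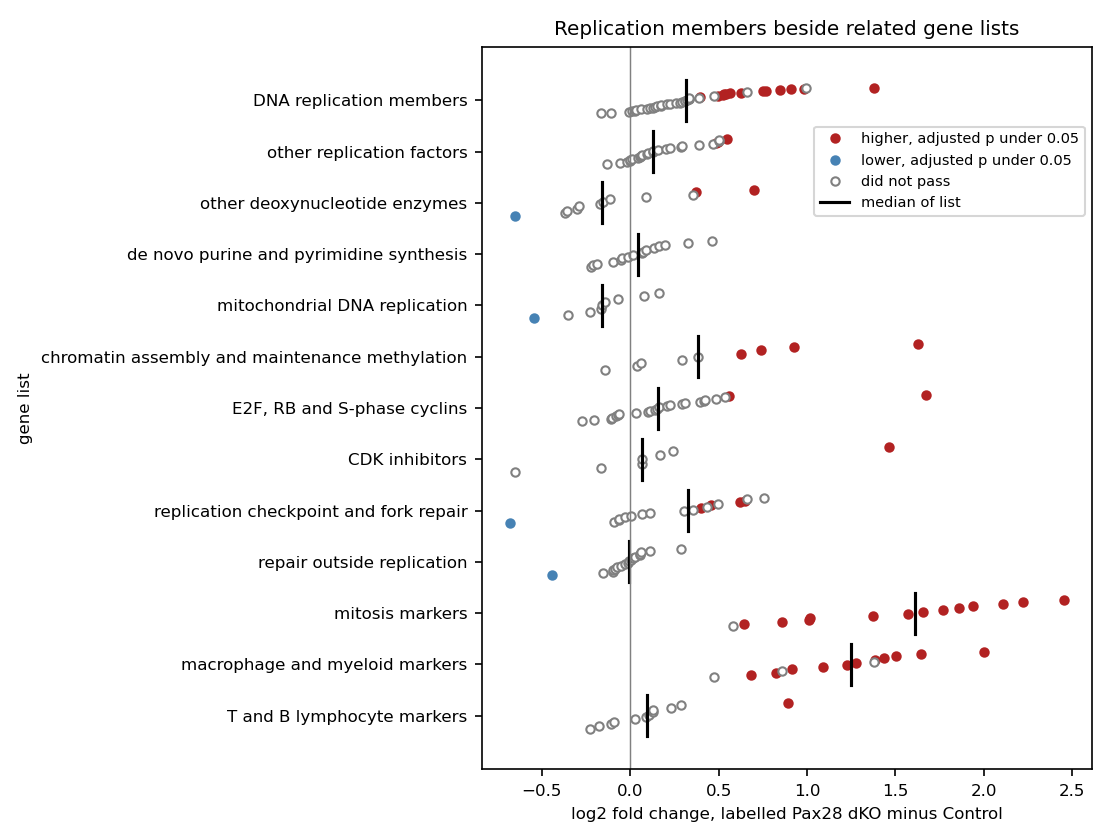
Log2 fold change of every measured gene of the replication list, 10 related lists and 2 immune marker lists, arrays labelled Pax28 dKO minus Control; red and blue points passed as higher and lower, open points did not pass, and the black line is the list median. The replication members have a median of 0.32, the mitosis markers of 1.61 and the macrophage markers of 1.25, while lists of repair outside replication and de novo nucleotide synthesis centre near 0.

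Of 14 measured mitosis markers 13 rose and 0 fell, with a median of 1.61 (the same with Bub1 and Birc5, dim in the controls, at their lower bounds), and their medians over the control mean were 0.92 on dKO 1, 1.88 on dKO 3 and 2.01 on dKO 5. The proliferation antigen Mki67 stood at 6.41, 7.18 and 7.53 log2 on dKO 1, 3 and 5, against 4.69, 4.54 and 4.52 log2 on controls 2, 4 and 6 (adjusted p = 0.0028). Top2a, which untangles copied chromosomes, rose by 1.94 ± 0.18, the spindle midzone gene Prc1 by 2.11 ± 0.20 and Kif11 by 1.57 ± 0.16 (adjusted p = 0.0041, 0.0047 and 0.0051). Fold changes of array features depend on each feature's background, and the sizes of the lists were not tested against each other. The number of mitosis calls was between 5 and 13 with single arrays left out; it was 5 without control 2, 6 without control 6, 7 without dKO 5 and 8 without dKO 3.

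Marker lists of other cells went in different directions, and some had no call. Of 14 macrophage and myeloid markers 11 rose and 0 fell, and all 14 had dKO arrays above the controls, with a median of 1.25. Of all genes 4.12% rose and 11.7% had all dKO arrays above the controls. Their summed linear level ranged from 1348 to 2211 on the arrays labelled dKO and from 713 to 773 on the controls, and their median over the control mean was 0.85, 1.11 and 1.58 on dKO 1, 3 and 5. The same medians were 0.56, 0.97 and 1.07 for the fibroblast and matrix list and 1.21, 1.77 and 1.43 for the tubular injury list. None of the 14 was dim in the controls. Of 12 lymphocyte markers 1 rose (Cd4, 0.89 ± 0.12) and 0 fell, the sums ranged from 169 to 204 and from 155 to 173, and Cd3d and Ms4a1 lay below the limit for dim genes. Tubular injury genes rose in 10 of 11 cases and fell in 0 (median 1.45, sums of 4468 to 5407 on the arrays labelled dKO against 1509 to 2015 on the controls), and fibroblast and matrix genes in 6 of 9 (median 0.87, sums of 1857 to 2468 against 1028 to 1421). The injury gene that did not pass, Havcr1, had an estimate below 0, at -0.60. Of 7 erythroid precursor genes 3 were measured, with 0 rises and 1 fall. Of 6 proximal tubule markers 3 fell (median -0.41, sums of 8410 to 11460 on the arrays labelled dKO against 13941 to 14730 on the controls), and of 5 collecting duct markers 3 fell (median -0.88). Endothelial markers had 0 calls in 7, with 0 higher and 1 lower at an unadjusted p under 0.05. Podocyte markers had 0 calls in 3, and thick limb and distal tubule markers 0 in 5. The part of any of these cells in the replication signal was not tested. With single arrays left out, the macrophage calls numbered between 5 (without control 2) and 10, with 6 without control 6, the injury calls between 7 and 10 and the fibroblast calls between 4 (without control 6) and 6. Cd4 did not pass without control 2 or control 6 (highest adjusted p = 0.055).

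Of the 13 calls, only those of Mcm5 and Pola1 held whichever array was left out. Cdc6, Mcm6 and Prim1 lost theirs whichever array was left out. Each such fit has fewer arrays, so these losses cannot show whether a single array carried the calls. Without dKO 1 or control 4, 8 of the 13 still passed, 5 did not (Cdc6, Mcm3, Mcm4, Mcm6 and Prim1), and 3 others did (Cdc45, Rrm2 and Clspn), 11 in all. The count of members was 4 without dKO 3, 2 without dKO 5, 4 without control 2 and 3 without control 6. The share of all genes that rose was 4.12% with 6 arrays and between 0.983% and 3.04% in these fits. Leaving out dKO 1 or control 4 leaves the genotype difference to the females, since the remaining male is taken up by the sex term. It gives the same fit as the females alone, so the 15 alternatives hold 13 distinct fits. Of the 13 members, only Mcm5 and Pola1 passed in all of them, with adjusted p of at most 0.017 and 0.046. The estimates of the 13 members were above 0 in all 169 of their distinct alternative fits.

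**Figure D5:**
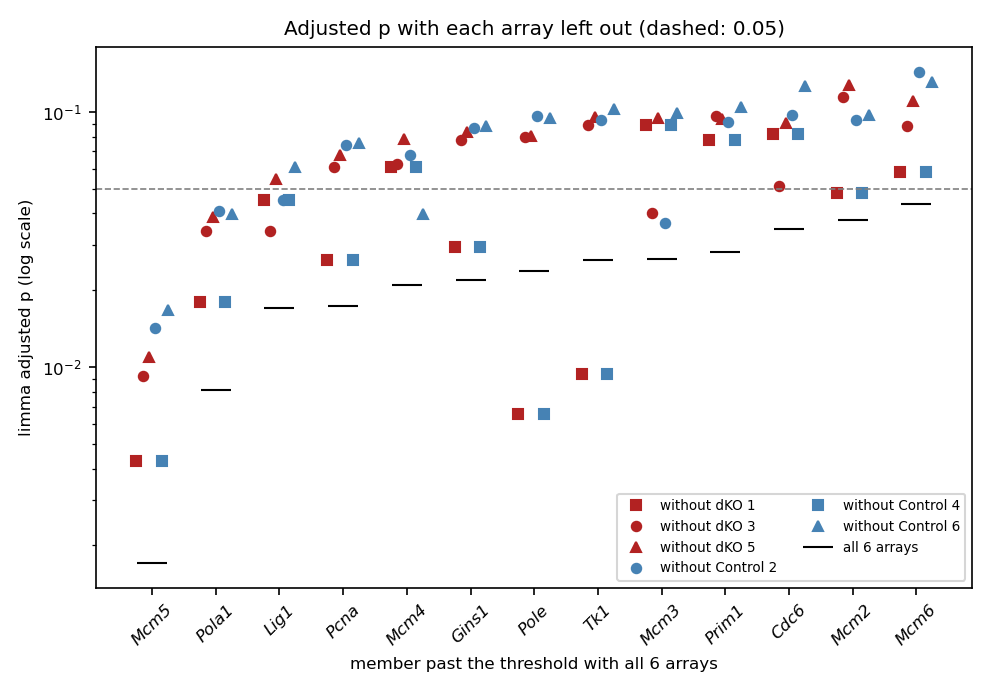
Limma adjusted p (log axis) of the 13 members that passed, with all 6 arrays (black bars) and with each array left out (red for arrays labelled dKO, blue for controls, squares for males, circles and triangles for females). Mcm5 and Pola1 stay under the dashed line at 0.05 in all 6 fits, Lig1 in 4, and Cdc6, Prim1 and Mcm6 in 0.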

How the data were processed

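Expression was measured on 6 arrays, 3 labelled Pax28 dKO and 3 Control. The deposited log2 values, 1 per transcript cluster, were made by the authors; per the submitters' processing notes the tools were RMA, limma and R 3.4.0, with no role stated, and any filter is not given in the sources used here. No further normalization was applied. Of the table's 41345 clusters, the platform annotation gives 1 symbol to 23521, several to 1814 and none to 16010; 23328 of the first were found in a RefSeq table of GRCm38.p6 by gene identifier. The cluster with the highest mean was kept per gene (22180 genes).

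Differences were fitted with limma 3.58.1 in R 4.3.3, with genotype and sex as terms (3 residual and 6.72 total degrees of freedom), and adjusted by the Benjamini-Hochberg method over all genes, threshold 0.05. In 20 simulations with 200 changed genes each, the fit recovered 15.2% of log2 changes of 0.5, 88% of 1 and 99.4% of 2. Of the simulated calls 4.66% were false. A gene that did not pass may therefore still differ. A log2 fold change is Pax28 dKO minus Control, with limma's standard error. Within each complex, up to 3 members with the smallest p and the one with the largest p are given per array. Of the related lists, up to 4 genes that passed, those with the smallest p, and each one that fell are named. Marker lists of other cells and of injury are given mostly as counts. Other genes were named after their values were seen. The members and lists were chosen with earlier results of these data known. A gene that rose with a control mean under 2.98 log2 is given as a lower bound from that limit where named; the list medians use its estimate, and those of the 3 lists with such genes are the same with the bounds. Promoter letters came from RefSeq (GRCm38.p6). Alternatives were no sex term, females only, each array left out, median centring, quantile normalization, weights per array, a robust prior with trend, a fit without dim genes, averaged clusters per gene and all rows tested. The number of arrays limits the precision.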

Additional observations from a re-analysis of the deposited data

Results flagged for a closer look

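For 4 members both female dKO arrays lay above both female controls while the male pair went the other way. The male difference was -0.38 for Orc6, against 0.18 in the females. It was -0.12 for Pold2 (0.23 in the females), -0.056 for Rfc1 (0.24) and -0.24 for Rfc2 (0.16), all on the log2 scale. Each male value rests on 1 array per group. The genotype by sex term did not pass for any of them, with adjusted p of 0.67, 0.79, 0.83 and 0.72. Groups of 3 arrays were not searched for single outlying samples.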

How the results depend on the processing

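The females alone, without dKO 1 and without control 4 are one fit, so the 15 alternatives hold 13 distinct ones. Of 169 distinct alternative fits of the 13 members that passed, 169 kept the direction and 103 the call. The members' median log2 fold change lay between 0.25 (quantile normalization) and 0.36 (without dKO 3) over all alternatives, and between 0.26 and 0.36 with single arrays left out. The count of members past the threshold was between 2 and 11 with single arrays left out, and that of all genes between 344 and 1249, against 1596. Without a sex term 5 members and 471 genes passed, and with every row of the table tested 2 members (Mcm5 and Pola1) and 302 genes; the cause was not tested. Without the sex term Cdc6, Mcm2, Mcm3, Mcm4, Mcm6, Gins1, Prim1 and Pcna lost their call. The other alternatives gave between 11 and 17 members. Quantile normalization and median centring each ended the call of Mcm6, and moved the median of all genes to -0.021 and -0.041. No paired analysis was possible because the replicate numbers of the 2 groups are not shared.

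Estimates near 0 changed sign without passing. Dut was -0.030 in the females alone, -0.0025 with array weights, -0.027 after quantile normalization and -0.022 after median centring, and with single arrays left out it ran from -0.030 to 0.073. Gins3 was -0.10 in the females alone, -0.0045 with array weights, -0.039 after quantile normalization and -0.0093 after median centring, and ran from -0.10 to 0.16 with single arrays left out. Orc6 was 0.18 in the females alone and 0.013 with array weights, and ran from -0.11 to 0.18. Orc1, dim in both groups, ran from -0.0014 to 0.11, values that give no direction. Rfc2 was -0.0062 after quantile normalization and -0.0032 after median centring, and ran from -0.020 to 0.16. The table holds no detection calls, so signal over background could not be given, and the limit for dim genes is a choice made here.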

Other observations

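A second array feature assigned to a single gene, not used in the comparison, exists for 6 members; Mcm7 and Tyms also have features shared with another symbol, which were not analysed here. Their log2 differences were 0.15 for Pole, 0.19 for Rrm2, 0.094 for Fen1, 0.015 for Rpa3, 0.001 for Dut and -0.029 for Rpa1, and none passed when every row was tested. Those of Rrm2 and Dut had means of 2.04 and 2.63 log2, below the limit for dim genes.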
